A study of Mus musculus with 4 samples.

Results

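RNA labelled as liver, from Kunming mice that received conjugated linoleic acid (CLA), was compared with that of the control group across genes outside the circadian clock. Several markers of hepatocytes were near 0 in these libraries, as given below. The CLA group had 1.5% (w/w) CLA in its chow for 28 days, and the control group (Vehicle) had 1.5% linoleic acid, the usual isomer of that fatty acid, in its place. Of the 15500 genes in the deposited table, 10355 had a mean of at least 1 FPKM (fragments per kilobase of transcript, normalised to library size) over the 4 libraries and were compared, and 5145 lay below it. Another pair of libraries came from mice that received GW6471, an antagonist of the nuclear receptor PPARα, by intraperitoneal injection at 20 mg/kg each day. The library labelled GW6471 was from the linoleic acid diet, and CLA+GW6471 was from the CLA diet. Control mice had vehicle injections where appropriate. All groups had 6 mice per the labels. The methods, which describe the control and CLA mice and not those with the antagonist, give a purchase at 5 weeks of age and put the liver collection of the sequencing experiment at zeitgeber time 8. Each group is represented by 1 library, and the sources used here do not give whether it pools mice.

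Ratios are log2 of FPKM + 0.1 in CLA over that in Vehicle, a scale on which low genes appear to change less than they do. No test was made, because a group of 1 library has no replicate error, and every difference describes these libraries alone. Here "rose" and "fell" stand for a ratio of at least 1.5-fold within a gene list, or 2-fold where stated. Depth was estimated from the steps between low values at 18850000 reads for Vehicle, 18880000 for CLA, 19090000 for GW6471 and 19290000 for CLA+GW6471. Intervals given with ratios are 95% Clopper-Pearson intervals of the estimated reads, which cover counting error only and not the spread between animals. They are made without the added 0.1, so for low genes they belong to a ratio slightly further from no change than the printed one.

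The labelled tissue was checked against its markers. Of 22 hepatocyte markers, 20 were listed and 9 reached a mean of 1 FPKM. Albumin (Alb) stood at 679.53 FPKM in Vehicle and 1321.55 in CLA, and the fibrinogen chain gene Fgb at 45.22 and 138.03. Defining hepatocyte genes were near 0, with Ttr at 0.04 FPKM, Cyp2e1 at 0.06 and Cps1 at 0.01 in both libraries. Over the 20 listed markers the summed levels were 1136 FPKM (Vehicle), 1987 (CLA), 1647 (GW6471) and 1075 (CLA+GW6471), and albumin made up most of each sum. Of the 9 markers compared 4 rose in CLA, which were Alb, Fgb, Trf and Ass1, none fell, and 4 lay below 0, among them the transcription factor gene Foxa2. The part of the markers that rose in the differences described here was not tested. These levels go against the label in several defining genes, and liver is used here as the label gives it. In bulk RNA, a smaller number of cells of a type and less RNA per cell cannot be told apart. For 9 lists of cell types other than hepatocytes, cholangiocytes and squamous epithelium, 37 of 62 markers were listed and 4 reached 1 FPKM. These were Dcn, a proteoglycan gene of fibroblasts, at 1287.08 FPKM in Vehicle and 1506.01 in CLA, Cd68 of macrophages, at 23.43 and 35.64, Hba-a1 of erythroid cells, at 1.80 and 2.02, and Cela1 of the exocrine pancreas, at 4.70 and 5.80. No lymphocyte, neutrophil, endothelial, adipocyte or skeletal muscle marker did so. The gene of the highest level in the table was Sprr1a, which encodes a precursor of the cornified envelope of squamous epithelia, with 19045.64 FPKM in Vehicle and 15810.18 in CLA, and 18795.15 in GW6471 and 26115.83 in CLA+GW6471. The other compared genes of that epithelium were Krt5, at 2.99 FPKM in Vehicle and 4.29 in CLA, and Ivl, at 1.68 and 2.57. Of its 6 markers the remaining 3, Krt14, Trp63 and Dsg3, had a mean under 0.1 FPKM. Of 5 cholangiocyte markers compared 1 rose, Spp1, and 1 fell, Sox9, from 54.74 to 34.72 FPKM.

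As background, sterol and fatty acid genes of the liver are switched on by the SREBP transcription factors, which leave the endoplasmic reticulum when sterols are low. Hypoxia-inducible factors are destroyed by prolyl hydroxylases while oxygen is present, and otherwise raise glycolytic enzymes, mitophagy receptors and the hydroxylases themselves. Polyunsaturated fatty acids are ligands of PPARα, the regulator of fatty acid oxidation genes. Immediate early genes, such as those of the AP-1 family, respond within a short time to growth factors and stress.

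Of the genes compared, 185 (1.79%) were at least 2-fold higher and 77 (0.744%) at least 2-fold lower in CLA than in Vehicle. At 1.5-fold, 759 genes (7.33%) were higher and 513 (4.95%) lower. The middle 90% of the ratios ran from -0.583 to 0.697, and the median was -0.007. Of the 9762 genes with a known length, 3138 (32.1%) were higher and 3272 (33.5%) lower beyond their counting interval. In the pair with the antagonist, CLA+GW6471 against GW6471, 291 genes (2.81%) were at least 1.5-fold higher and 402 (3.88%) lower. In that pair, the 185 genes that were 2-fold higher in CLA over Vehicle had a median ratio of -0.87 and the 77 lower genes 0.65, so that most of them moved the opposite way. Labels are used as given, and whether each library matches its label was not tested. A difference of 4-fold was reached by 9 genes that were higher in CLA (0.0869%) and by 1 that was lower (0.00966%), the interleukin gene Il1rn. The genes that moved 2-fold upward were of low level, with a median of 2.83 FPKM in Vehicle and 7.14 in CLA, against 14.2 and 14.1 over all genes. At a mean of 1 to 3 FPKM 5.99% of genes were 2-fold higher, and above 100 FPKM 0.532% were.

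**Figure D1:**
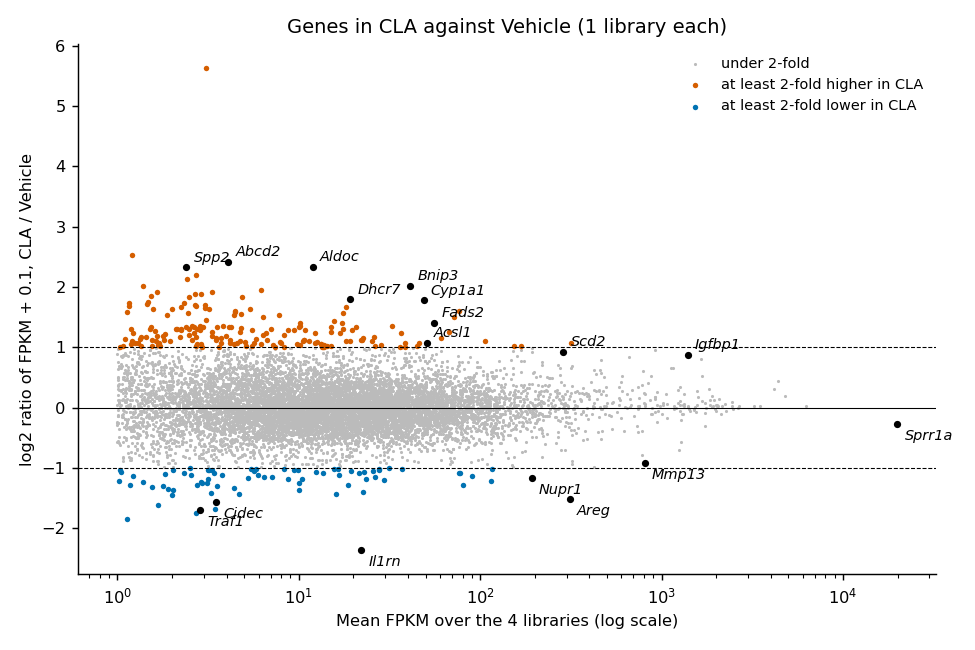
The log2 ratio of FPKM + 0.1 in CLA over Vehicle (vertical axis) is plotted against the mean FPKM of the 4 libraries (horizontal axis, log scale), with 1 point per gene, dashed lines at 2-fold and named genes in black. The 185 orange and 77 blue points are mostly of low level, and the isolated point at the top is a gene listed at 0 in Vehicle.

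Values over 28 gene lists outside the clock are given as the number of compared members that rose or fell and the median ratio, beside 7.33%, 4.95% and -0.007 over all genes. A median above 0 was found for 20 lists and below 0 for 8. Medians of at least 0.5 belonged to 8 lists, of cholesterol synthesis, fatty acid and triglyceride synthesis, desaturases and elongases, hypoxia response, glycolysis, gluconeogenesis and glycogen, NRF2 and glutathione, and the aryl hydrocarbon receptor battery. Which lists reach 0.5 depended on the settings. At a mean of at least 5 FPKM the aryl hydrocarbon receptor battery and the NRF2 list were both at 0.48, and without a filter gluconeogenesis and glycogen was at 0.41. Peroxisomal lipid metabolism was at 0.56 and 0.62 under these filters, and glycolysis was at 0.48 with a pseudocount of 1 and at 0.47 with libraries scaled to a common sum. The lowest medians were those of cytokines and chemokines, at -0.31, and of the ATF4 and the immediate early genes, both at -0.23.

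**Figure D2:**
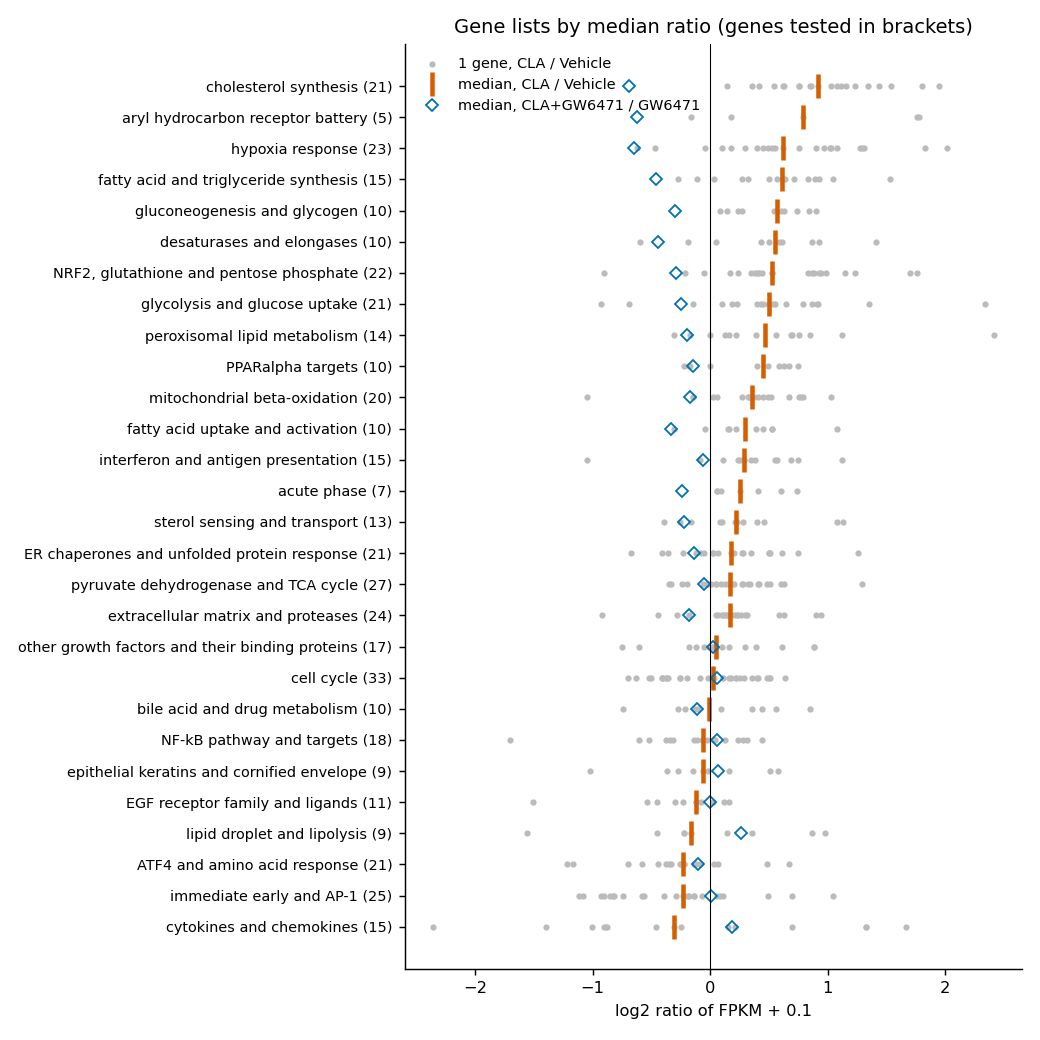
Each row is a gene list with the number of compared members in brackets, grey points are members, and the horizontal axis is the log2 ratio of FPKM + 0.1. Orange bars mark the median in CLA over Vehicle, from -0.31 for cytokines and chemokines to 0.92 for cholesterol synthesis, and blue diamonds mark the median in CLA+GW6471 over GW6471, at -0.69 for cholesterol synthesis.

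Upstream sequences are shown for 6 genes, chosen because they rose or fell in the lists described below and hold a motif among those searched. They are the 250 bases before the RefSeq start site, 5′ to 3′, in build GRCm38.p6, joined to the table by gene number. Capitals mark the motif named for each gene and no other. For Bnip3 (chr7:138909507-138909756 on the minus strand) and Ankrd37 (chr8:45999851-46000100 on the minus strand), both of the hypoxia list, they mark ACGTG, the core of the hypoxia response element. For Hmgcs1, chosen after its values were seen as the sole gene of its list with the motif (chr13:119690101-119690350 on the plus strand), at 26.76 FPKM in Vehicle and 56.68 in CLA, they mark TCACNCCAC, the sterol response element. For Areg (chr5:91139349-91139598 on the plus strand) and Ppp1r15a (chr7:45526269-45526518 on the minus strand) they mark TGACGTCA, the cyclic AMP response element. For Il1rn (chr2:24336610-24336859 on the plus strand) they mark TGANTCA, the AP-1 element.
Bnip3: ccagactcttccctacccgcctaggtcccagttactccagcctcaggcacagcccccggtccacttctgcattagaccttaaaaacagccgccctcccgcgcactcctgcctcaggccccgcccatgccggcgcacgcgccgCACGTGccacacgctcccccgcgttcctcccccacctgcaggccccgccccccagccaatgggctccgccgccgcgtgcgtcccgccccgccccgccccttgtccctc
Ankrd37: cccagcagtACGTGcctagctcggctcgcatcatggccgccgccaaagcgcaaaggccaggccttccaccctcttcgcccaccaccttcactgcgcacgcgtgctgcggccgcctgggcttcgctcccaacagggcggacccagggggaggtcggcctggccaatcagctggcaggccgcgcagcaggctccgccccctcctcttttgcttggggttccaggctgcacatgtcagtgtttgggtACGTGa
Hmgcs1: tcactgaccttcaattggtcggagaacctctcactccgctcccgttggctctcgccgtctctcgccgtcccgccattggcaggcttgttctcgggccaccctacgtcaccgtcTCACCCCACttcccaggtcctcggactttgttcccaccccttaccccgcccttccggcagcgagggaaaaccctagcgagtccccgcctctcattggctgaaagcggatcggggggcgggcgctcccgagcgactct
Areg: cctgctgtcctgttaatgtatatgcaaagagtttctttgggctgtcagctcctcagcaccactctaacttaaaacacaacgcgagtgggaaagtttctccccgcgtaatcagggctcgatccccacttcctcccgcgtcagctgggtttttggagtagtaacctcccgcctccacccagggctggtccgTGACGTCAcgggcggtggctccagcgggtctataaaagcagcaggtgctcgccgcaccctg
Ppp1r15a: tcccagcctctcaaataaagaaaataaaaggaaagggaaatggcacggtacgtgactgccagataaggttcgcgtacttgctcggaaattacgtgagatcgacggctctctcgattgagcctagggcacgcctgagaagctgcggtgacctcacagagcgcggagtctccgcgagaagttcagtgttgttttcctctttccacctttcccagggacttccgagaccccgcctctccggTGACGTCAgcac
Il1rn: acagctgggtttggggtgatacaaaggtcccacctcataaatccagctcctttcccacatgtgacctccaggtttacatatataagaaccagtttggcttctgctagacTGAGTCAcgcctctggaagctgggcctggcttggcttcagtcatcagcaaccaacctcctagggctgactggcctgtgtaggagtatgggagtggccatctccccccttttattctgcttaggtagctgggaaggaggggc

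Cholesterol synthesis was the list with the highest median. Of its 21 enzymes 17 rose and none fell in CLA, with a median ratio of 0.92, and the summed levels were 561.9 FPKM in Vehicle and 1030.0 in CLA. Acat2, which joins acetyl-CoA units at the entry of the pathway, had 3.14 FPKM in Vehicle against 12.44 in CLA, with 6.88 in GW6471 and 2.22 in CLA+GW6471, and its ratio in CLA over Vehicle was 1.95 (1.71 to 2.27). Dhcr7, the enzyme of a final step to cholesterol, had 9.46 FPKM in Vehicle and 33.11 in CLA, and 24.81 in GW6471 and 9.74 in CLA+GW6471, with a ratio of 1.80 (1.66 to 1.95). Both genes were highest in CLA, next in GW6471, and low in Vehicle and CLA+GW6471. Mvd, which makes isopentenyl diphosphate, had a ratio of 1.54, and the sterol dehydrogenase gene Nsdhl had 1.44. The 4 enzymes that stayed within 1.5-fold were all above 0 as well. In CLA+GW6471 against GW6471, none of the 21 rose, 14 fell, and the median was -0.69.

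Genes that sense and move sterols moved less. Of 13 such genes 2 rose and none fell, with a median of 0.22. These were Stard4, a sterol carrier, with 7.15 FPKM in Vehicle and 15.81 in CLA, and Insig1, which holds SREBP in the endoplasmic reticulum, with 8.29 and 17.66. The SREBP genes themselves stayed within 1.5-fold, at 0.40 for Srebf1 and 0.22 for Srebf2.

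In fatty acid and triglyceride synthesis, 8 of 15 genes rose and none fell, with a median of 0.61. Acss2, which makes acetyl-CoA from acetate, had 2.38 FPKM in Vehicle against 7.08 in CLA, with 5.64 in GW6471 and 2.45 in CLA+GW6471, and its ratio was 1.53 (1.29 to 1.88). Gpam, the enzyme of the first step of glycerolipid synthesis, had a ratio of 1.05, and the citrate carrier gene Slc25a1 had 0.89. Of 10 desaturases and elongases, 5 rose and 1 fell. Fads2, the delta-6 desaturase of polyunsaturated fatty acids, had 31.46 FPKM in Vehicle and 83.97 in CLA, and 72.56 in GW6471 and 35.10 in CLA+GW6471. For the stearoyl-CoA desaturase gene Scd2, the values were 201.80, 385.81, 366.29 and 197.40 FPKM in the same order. In each of these 3 genes with 4 values given, CLA and GW6471 lay above both other libraries. Mlxipl, the carbohydrate response factor, was below 1 FPKM in every library.

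Lipid droplet genes went in both directions, with 2 of 9 higher, 1 lower and a median of -0.16, or 0.00 without the filter on low values. Cidec, which fuses lipid droplets, fell from 5.19 FPKM in Vehicle to 1.69 in CLA and was at 2.32 in GW6471 and 4.85 in CLA+GW6471. G0s2, an inhibitor of adipose triglyceride lipase, rose from 13.30 to 26.26 FPKM, and the hormone-sensitive lipase gene Lipe from 4.59 to 8.45. Of 10 genes of fatty acid uptake and activation, 1 rose, the acyl-CoA synthetase gene Acsl1, from 34.92 FPKM in Vehicle to 74.10 in CLA.

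Of 20 mitochondrial beta-oxidation genes 5 rose and 1 fell, with a median of 0.36, and of 14 peroxisomal genes 6 rose and none fell, with a median of 0.47. Abcd2, a peroxisomal transporter of very long chain acyl-CoA, had 1.53 FPKM in Vehicle against 8.61 in CLA, with 4.81 in GW6471 and 1.44 in CLA+GW6471, and its ratio of 2.42 (2.25 to 2.75) was the highest of any list member. Cat, which encodes catalase, rose from 14.64 to 31.93 FPKM. Hadh, the short-chain hydroxyacyl-CoA dehydrogenase gene, rose from 30.14 to 61.47. The thioesterase gene Acot2 fell from 15.44 to 7.41 FPKM, but reads could be shared with its near-identical copy Acot1, which stood at 2.34 and 4.01.

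PPARα targets had a median ratio of 0.45, with 4 of 10 higher and none lower. Without the filter on low values, over 17 listed targets, the median was 0.26. Pdk4, a pyruvate dehydrogenase kinase gene and target of PPARα, had 1.17 FPKM in Vehicle and 1.87 in CLA, and 17.99 in GW6471 and 15.56 in CLA+GW6471. The carnitine carrier gene Slc25a20 had 4.12 and 6.61 FPKM in Vehicle and CLA, and 9.83 and 8.34 in the GW6471 and CLA+GW6471 libraries. In both genes the libraries with the antagonist were above both others. The receptor genes Ppard and Pparg stayed within 1.5-fold, with ratios of -0.31 and 0.41.

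Among hypoxia response genes, 12 of 23 rose and 1 fell, with a median of 0.62. Bnip3, a mitophagy receptor gene, had 19.65 FPKM in Vehicle and 79.94 in CLA, and 46.56 in GW6471 and 18.42 in CLA+GW6471, and its ratio was 2.02 (1.90 to 2.15). Ankrd37, an ankyrin repeat gene of this response, had 1.25, 4.69, 3.17 and 0.84 FPKM in the same order. The 2 genes shared their order of libraries, with CLA first and CLA+GW6471 last. Egln3, a prolyl hydroxylase gene, had a ratio of 1.31, and Pdk1, the pyruvate dehydrogenase kinase gene of this response, had 1.29. Among the factors, Epas1, which encodes HIF-2α, rose from 5.28 to 12.99 FPKM, and Hif1a had a ratio of 0.53. In CLA+GW6471 against GW6471, none of the 23 rose and 13 fell, with a median of -0.65.

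Glycolysis genes had a median of 0.50, with 7 of 21 higher and 2 lower. Aldoc, an aldolase gene, had 4.98 FPKM in Vehicle against 25.70 in CLA, with 13.51 in GW6471 and 3.76 in CLA+GW6471, and its ratio was 2.34 (2.17 to 2.56). Pfkl, the liver phosphofructokinase gene, rose from 20.14 to 51.61 FPKM, and Gpi1, the next enzyme upstream, from 142.89 to 269.79. Eno2, an enolase gene known from neurons, fell from 12.68 to 6.62. Of the 10 gluconeogenesis and glycogen genes compared 5 rose and none fell, with Ugp2, which makes UDP-glucose, at 71.36 FPKM in Vehicle and 127.78 in CLA. G6pc, Pck1, Fbp1 and Gys2 were not among the deposited genes, and Pcx and Pygl lay below a mean of 1 FPKM. The list therefore says little of gluconeogenesis itself. In the tricarboxylic acid cycle with pyruvate dehydrogenase, 3 of 27 rose and none fell, and the median was 0.17. Those that rose were the kinase genes Pdk1, also in the hypoxia list, and Pdk4, and the malate dehydrogenase gene Mdh1. Their ratios were 1.29, 0.63 and 0.60.

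**Figure D3:**
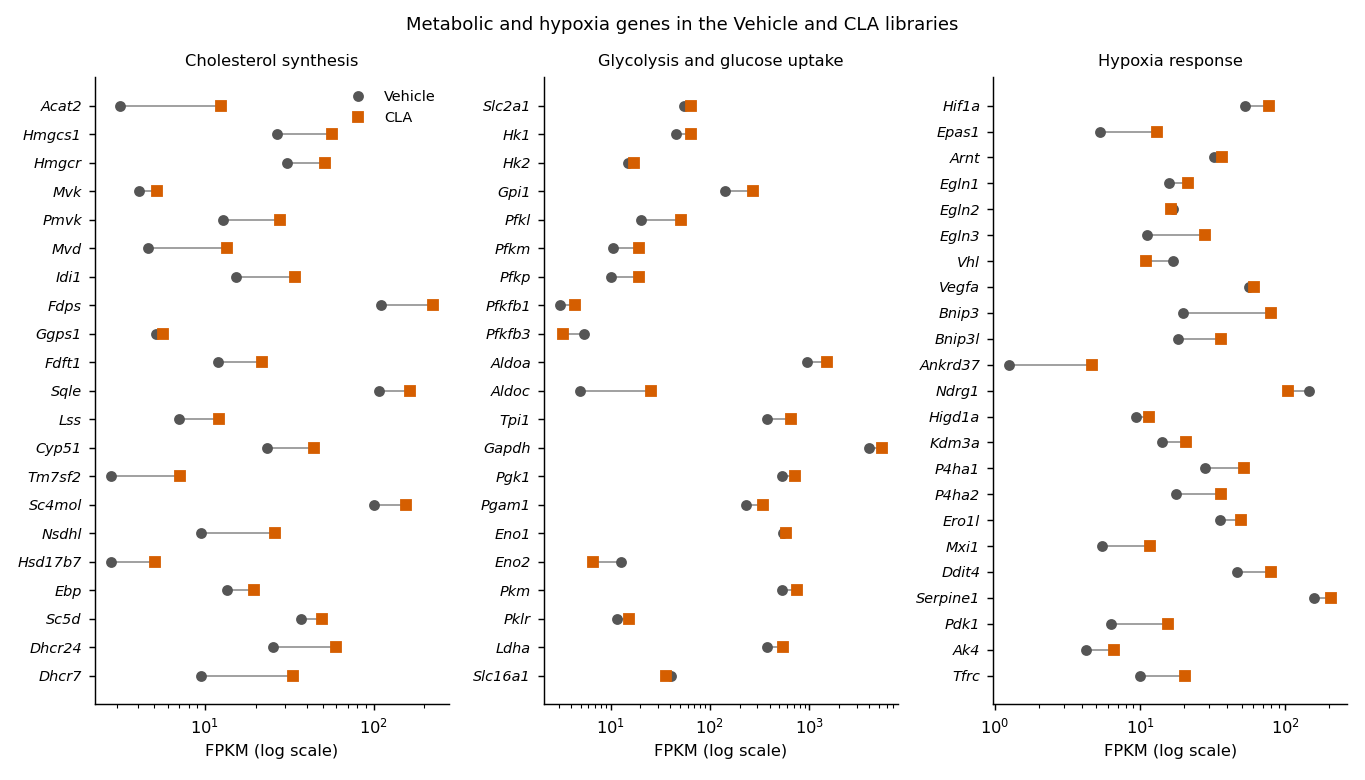
FPKM (horizontal axis, log scale) of every compared member of 3 lists in the Vehicle library (grey circles) and the CLA library (orange squares), joined by a line for each gene. All 21 cholesterol genes lie to the right in CLA, as do 20 of 23 hypoxia and 18 of 21 glycolysis genes.

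Antioxidant and xenobiotic genes were among those that rose. In the list of NRF2 targets, glutathione and the pentose phosphate pathway, 10 of 22 rose and 1 fell, with a median of 0.53. Nqo1, the quinone reductase gene, had 0.72 FPKM in Vehicle and 2.67 in CLA. The glutathione transferase genes Gsta3, Gsta4 and Gstm1 had ratios of 1.70, 1.23 and 1.15, and reads could be shared with close copies. Nfe2l2, which encodes NRF2, had a ratio of -0.05. Cyp1a1, the cytochrome P450 gene of the aryl hydrocarbon receptor, had 22.08 FPKM in Vehicle and 76.07 in CLA, and 74.74 in GW6471 and 22.08 in CLA+GW6471. The receptor gene Ahr rose from 20.92 to 36.13 FPKM. In the list of the receptor's battery, which shares Nqo1 with the NRF2 list, 3 of 5 genes rose and none fell, with a median of 0.79. The 5 include Ahr itself, whose ratio is that median, and its partner gene Arnt, at 0.18. Tiparp lay below 0, and Ahrr, Cyp1a2, Cyp1b1 and Ugt1a6a were below a mean of 1 FPKM. The 10 bile acid and drug metabolism genes compared did not shift as a group, with 1 higher, 1 lower and a median of -0.01. Of 24 genes in this list 21 were listed, and 11 lay below a mean of 1 FPKM, 9 of them under 0.1. Cyp7a1, Abcb11, Slc10a1 and Cyp2e1 were among the 11, so the group is only partly covered. The members that moved were Abcc3, an export pump gene, at 12.38 and 22.33 FPKM, and Nr1h4, which encodes the bile acid receptor, at 9.39 and 5.59.

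Inflammatory genes moved in both directions. Of 15 cytokine and chemokine genes 4 rose and 6 fell, with a median of -0.31. Il1rn, which encodes the antagonist of the interleukin 1 receptor, had 34.25 FPKM in Vehicle against 6.58 in CLA, with 10.56 in GW6471 and 36.73 in CLA+GW6471, and its ratio was -2.36 (-2.56 to -2.20). Il23a, a subunit gene of interleukin 23, had 30.07, 11.32, 16.15 and 33.09 FPKM in the same order. Both were lowest in CLA and highest in CLA+GW6471. Ccl2, Cxcl2, Cxcl16 and Lif were the other 4 genes that fell, with ratios of -1.01, -0.90, -0.89 and -0.88, and they are named after their values were seen. Ccl20, a chemokine gene for cells with the receptor CCR6, had 9.57 FPKM in Vehicle and 30.65 in CLA, and 25.17 in GW6471 and 7.36 in CLA+GW6471. The alarmin gene Il33 rose from 13.25 to 33.54 FPKM. Cx3cl1 and Cxcl5, named after their values were seen, also rose, with ratios of 1.33 and 0.70.

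Genes of the NF-kB pathway stayed closer to 0, with none of 18 higher, 2 lower and a median of -0.06. Traf1, an adaptor gene of tumor necrosis factor receptors, fell from 3.80 to 1.10 FPKM and was at 1.62 in GW6471 and 4.94 in CLA+GW6471. Tnfaip3, which encodes the inhibitor A20, fell from 20.16 to 13.17. Nfkb1 and Rela had ratios of 0.03 and -0.32. Of 15 interferon and antigen presentation genes 3 rose and 1 fell. Those that rose were Psmb9 and Psmb8 of the immunoproteasome and Stat2, with ratios of 1.12, 0.75 and 0.69, and the one that fell was the invariant chain gene Cd74, from 7.41 to 3.52 FPKM. In the acute phase list 2 of 7 rose and none fell, with a median of 0.25, or 0.07 without the filter on low values, among them the ceruloplasmin gene Cp with a ratio of 0.60.

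Immediate early genes were mostly lower in CLA. Of 25 genes 8 fell and 2 rose, 19 lay below 0, and the median was -0.23. Jun, of the AP-1 family, had 17.52 FPKM in Vehicle against 8.02 in CLA, with 18.69 in GW6471 and 22.27 in CLA+GW6471, and its ratio was -1.12 (-1.29 to -0.97). Atf3 had 89.81, 42.33, 89.81 and 88.37 FPKM in the same order. For these 2 genes the CLA library alone was low. Myc, a driver of cell growth, had 386.83 FPKM in Vehicle and 203.56 in CLA, and 279.68 in GW6471 and 408.62 in CLA+GW6471. The Kruppel-like factor gene Klf2 rose from 3.34 to 7.04 FPKM.

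Among growth factors, Areg, which encodes the epidermal growth factor receptor ligand amphiregulin, had the largest fall. It had 411.34 FPKM in Vehicle against 144.84 in CLA, with 288.76 in GW6471 and 405.62 in CLA+GW6471, and its ratio was -1.51 (-1.56 to -1.45). CLA was the lowest library, and Vehicle and CLA+GW6471 lay close to each other. Areg was the sole member to fall of 11 genes of this receptor family, of which none rose. The ligand gene Hbegf had a ratio of -0.54, and the receptor gene Egfr had -0.12. Of 17 other growth factor genes 3 rose and 2 fell, with a median of 0.05. Igfbp1, which encodes a liver-secreted binding protein of insulin-like growth factors, had 1029.75 FPKM in Vehicle and 1901.41 in CLA, and 1695.21 in GW6471 and 953.39 in CLA+GW6471. Igf2 rose from 6.04 to 11.23 FPKM and Igfbp4 from 680.64 to 1037.53.

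Cell cycle genes showed little difference, with 1 of 33 higher, 2 lower and a median of 0.02. Cdkn1a, which encodes the inhibitor p21, fell from 306.85 FPKM in Vehicle to 188.52 in CLA, and was at 279.66 in GW6471 and 398.43 in CLA+GW6471. Cdkn2b, which encodes the inhibitor p15, rose from 62.52 to 97.23.

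Of the 21 ATF4 and amino acid response genes 3 fell and 1 rose, 17 lay below 0, and the median was -0.23. Nupr1, a stress-induced nuclear protein gene, had 249.94 FPKM in Vehicle against 110.73 in CLA, with 151.27 in GW6471 and 255.93 in CLA+GW6471, with a ratio of -1.17 (-1.26 to -1.09). Ppp1r15a, which encodes the GADD34 subunit of the phosphatase that restores translation, had 141.29, 60.59, 106.63 and 150.56 FPKM in the same order. Ddit3, which encodes CHOP, fell from 318.78 to 195.69 FPKM. All 3 were lowest in CLA. The cystine carrier gene Slc7a11 rose from 28.08 to 44.62, and Atf4 itself had a ratio of 0.07. Endoplasmic reticulum chaperone genes had a median of 0.18, with 3 of 21 higher and 1 lower. Sdf2l1, of a chaperone complex, rose from 3.25 to 7.90 FPKM, and Ern1, which encodes the sensor IRE1α, fell from 41.11 to 25.73.

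**Figure D4:**
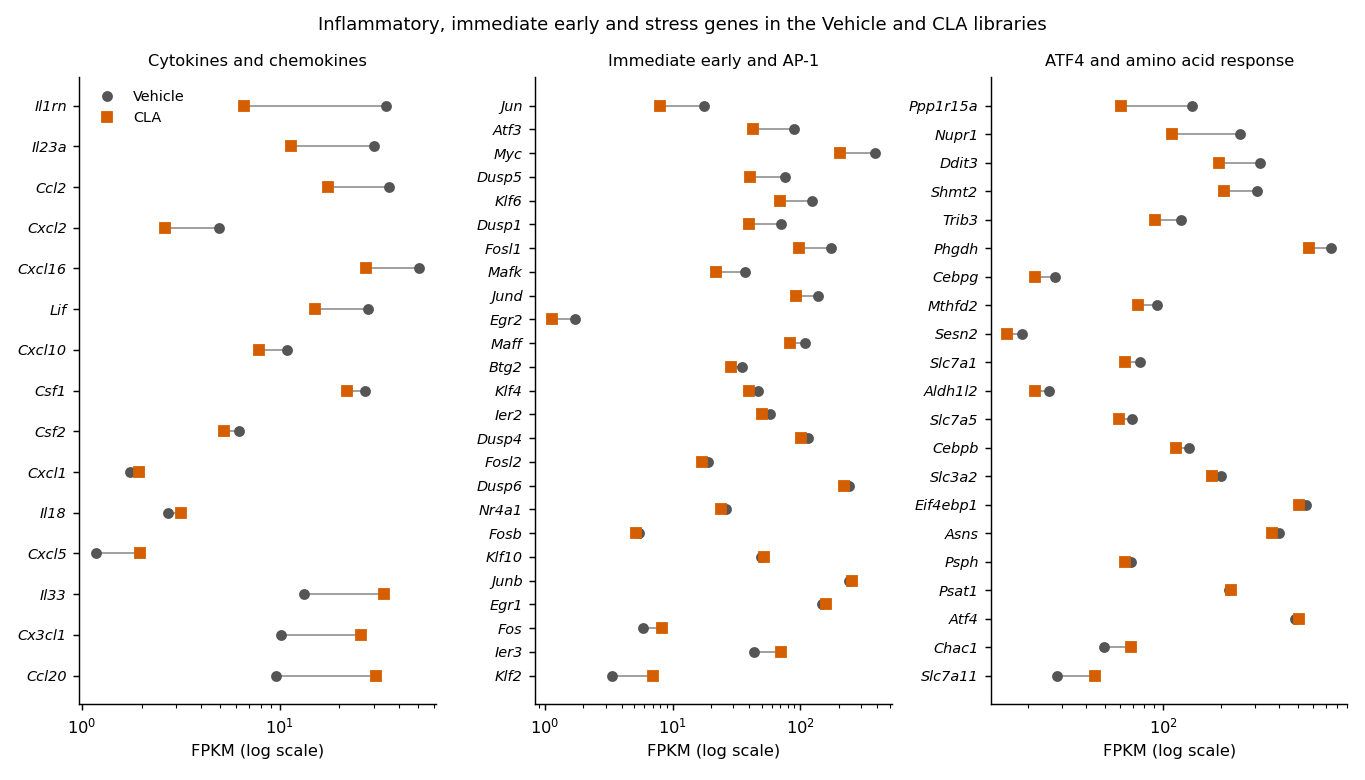
FPKM (horizontal axis, log scale) of every compared cytokine, immediate early and ATF4 gene in the Vehicle library (grey circles) and the CLA library (orange squares), ordered by ratio with the lowest on top. Below 0 lie 9 of 15 cytokine, 19 of 25 immediate early and 17 of 21 ATF4 genes.

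Matrix and epithelial genes completed the lists. Of 24 matrix and protease genes 4 rose and 1 fell, with a median of 0.17. Thbs1, the thrombospondin 1 gene, rose from 117.79 FPKM in Vehicle to 225.73 in CLA, and Spp1, the osteopontin gene, from 372.04 to 574.44. Mmp13, a collagenase gene, had 960.77 FPKM in Vehicle and 506.68 in CLA, and 754.68 in GW6471 and 1006.15 in CLA+GW6471. Of 9 keratin and cornified envelope genes 1 rose and 1 fell, the latter being the trefoil factor gene Tff3, at 59.80 and 29.46 FPKM.

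Most of the genes that moved 2-fold were in none of these lists. Of the 185 higher genes 144 and of the 77 lower genes 63 were in no list, the clock list included. Most of all genes compared were in no list either, and the lists hold a smaller part of those than of the moved genes. The lists were chosen with earlier results of these data known. Among the 30 largest rises, Spp2, a secreted phosphoprotein gene, had 0.96 FPKM in Vehicle against 5.24 in CLA, with 2.69 in GW6471 and 0.70 in CLA+GW6471. Hpgd, the enzyme that inactivates prostaglandins, had 2.33, 7.45, 2.01 and 1.01 FPKM in the same order, so that GW6471 was not raised there. The matrix gene Tgfbi rose from 2.82 to 10.25 FPKM and Angpt1, a ligand gene of the receptor TIE2, from 0.59 to 2.11. Others were Selenbp1, a selenium-binding protein gene, and Gchfr, a regulator of tetrahydrobiopterin synthesis, with ratios of 1.89 and 1.73. Gm10058 was listed at 0 in Vehicle and at 4.86 FPKM in CLA, and belongs to a family of near-identical copies.

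Among the 20 largest falls outside the lists, Nbl1, an antagonist gene of bone morphogenetic proteins, had 4.52 FPKM in Vehicle and 1.28 in CLA, and 1.51 in GW6471 and 3.49 in CLA+GW6471. Slc43a3, a nucleobase carrier gene, had 21.15, 7.77, 12.36 and 22.69 FPKM in the same order. Both had Vehicle and CLA+GW6471 above the remaining libraries. The neuronal splicing factor gene Srrm4 had a ratio of -1.68, the cornified envelope gene Lce1g had -1.43 and the somatostatin receptor gene Sstr2 had -1.35.

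**Figure D5:**
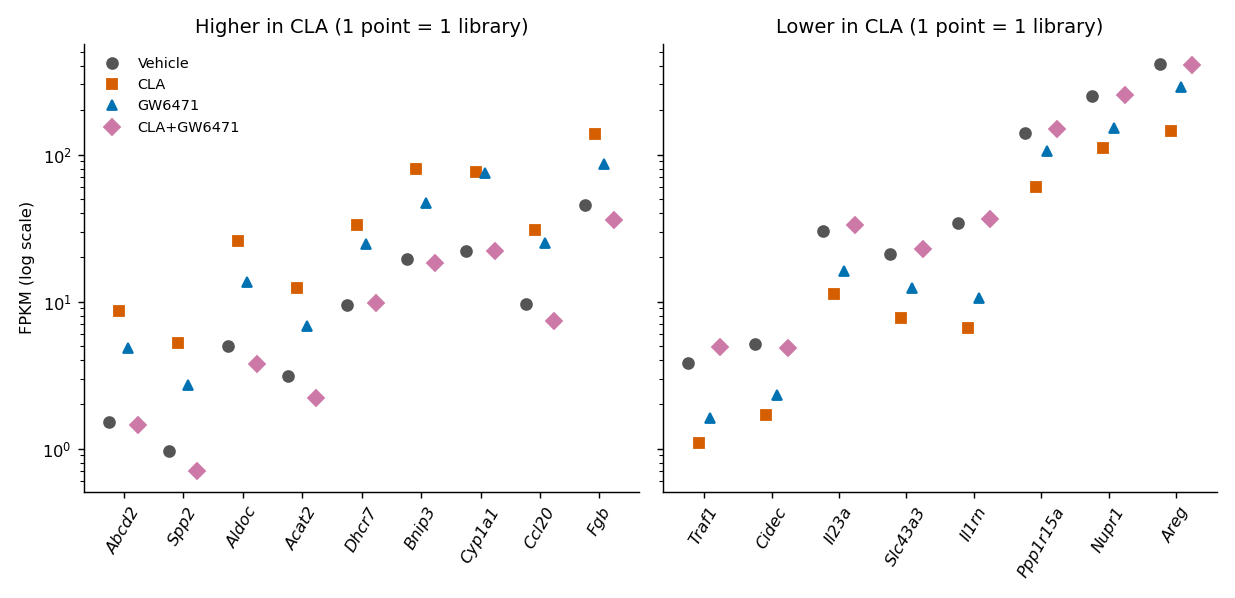
FPKM (vertical axis, log scale) of 9 genes higher and 8 genes lower in CLA, with 1 symbol per library, picked from the genes named in the text with their values known. In the genes drawn, CLA and GW6471 lie on the same side of Vehicle and CLA+GW6471, for example for Cyp1a1 at 76.07 and 74.74 against 22.08 and 22.08 FPKM, and this does not hold for some genes not drawn, such as Jun, Atf3, Hpgd, Acot2 and Pdk4.

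Promoters of the genes that moved were searched for 10 motifs on both strands, in the 250 bases before and 50 after each RefSeq start site. There were 190 promoters for 142 higher genes, 73 for 56 lower genes and 10794 for 8414 of the genes compared. The sterol response element TCACNCCAC was in 10 of the 190 promoters of higher genes (5.26%), in 1 of 73 of lower genes (1.37%) and in 1.14% of all. Of the 19 promoters of the cholesterol list 1 held it, that of Hmgcs1 shown above, and it was also in those of Acsl1 and Aldoc. The cyclic AMP response element TGACGTCA was in none of the 190 promoters of higher genes, in 7 of 73 of lower genes (9.59%) and in 3.08% of all. Areg, Ppp1r15a and Sstr2 were among the 7 genes. The AP-1 element TGANTCA was in 5.26% of higher, 11.0% of lower and 5.06% of all promoters.

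The hypoxia core ACGTG was in 23.2% of promoters of higher genes, 23.3% of lower genes and 26.2% of all, and in 17 of 30 promoters of the hypoxia list (56.7%). In Bnip3 it lies within CACGTG, 108 bases before the start site, which reads the core on both strands and is also the E-box. In Ankrd37 it begins 241 and 6 bases before the start site. The E-box CACGTG, which contains ACGTG, was in 7.89% of higher, 16.4% of lower and 10.3% of all promoters. The antioxidant core TGACNNNGC was in 13.2%, 19.2% and 14.4% in the same order, and the xenobiotic core TNGCGTG in 19 of 190 promoters of higher genes, 11.0% of lower genes and 8.17% of all. GGGANTTCC of NF-kB was in 1.05%, 1.37% and 2.33%, and GGTCANAGG of the PPAR direct repeat in 1.05%, 2.74% and 1.42%. The ATF4 element ATTGCATCA was in none of the higher genes, in 1 lower gene, Nupr1, and in 0.12% of all promoters. These shares describe letters in a window, and no match was taken as a binding site.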

How the data were processed

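Liver RNA of mice was sequenced in 4 libraries, 1 per group, and samples were grouped by their labels. Per the methods and the submitters' processing notes, the authors mapped reads to mm9 with BWA and Bowtie and quantified them with Cufflinks, with versions not given in the sources used here. They deposited FPKM with 2 decimals for 15500 genes, selected by an unstated filter. No unit stands in the table, and it was taken from a supplement of the paper. Such values are relative to each library's total, and reads of near-identical genes can be split between copies.

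The file gives no counts. Depth was estimated from 603 short genes (under 1000 nt), whose low FPKM values, multiplied by length, advance by the worth of 1 read, with 146 to 155 values per library. The match to whole steps was partial, at scores of 0.458 to 0.535 (1 is a perfect match), so intervals, given for 9762 genes with the longest coding transcript of GENCODE vM1, are approximate.

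Calculations used Python 3.11.15 (scipy 1.17.1, pandas 2.3.3, numpy 2.4.6, matplotlib 3.10.9) and were tested on simulated data. No test between groups was possible with 1 library each. Genes named were the 30 largest rises and 20 largest falls, up to 4 members per list with the largest ratio, a set of regulators and cell markers, outside the clock, Y-linked genes and Xist, and some genes that this rule names are not reported here. The members and lists were chosen with earlier results of these data known. Alternatives were other pseudocounts, filters, scalings and folds. Promoters (GRCm38.p6) were joined by Entrez number, not by mm9 coordinates. The files give 107 genes without a symbol and 25 symbols turned into dates.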

Additional observations from a re-analysis of the deposited data

Results flagged for a closer look

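For 8 gene lists the medians in the pair without GW6471 (CLA over Vehicle) and in the pair with it (CLA+GW6471 over GW6471) were both at least 1.2-fold from no change and of opposite sign. The pairs share no library, and the differences were not tested, since each group has 1 library. The difference between the medians, CLA over Vehicle minus the other pair, was 1.61 (log2) for cholesterol synthesis and 1.07 for fatty acid and triglyceride synthesis. It was 0.99 for desaturases and elongases and 0.63 for fatty acid uptake and activation. For hypoxia response it was 1.27, and for gluconeogenesis and glycogen 0.87. For NRF2, glutathione and pentose phosphate it was 0.82, and for the aryl hydrocarbon receptor battery 1.41. Without a filter on low values, fatty acid uptake and activation had a median of 0.15 in CLA over Vehicle and the aryl hydrocarbon receptor battery of -0.21 in the other pair, both nearer to no change than 1.2-fold. Glycolysis met the same limit at a mean of at least 5 FPKM, with 0.52 and -0.28, and at a common sum, with 0.47 and -0.31. Pdk4 set both libraries labelled with GW6471 apart, at 17.99 and 15.56 FPKM against 1.17 in Vehicle and 1.87 in CLA. Whether the labels match the libraries was not tested.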

How the results depend on the processing

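The counts of genes at least 2-fold higher and lower (185 and 77) depended on how low values were treated. They were 104 and 31 with a pseudocount of 1, 83 and 42 with a mean of at least 5 FPKM, and 402 and 269 with no filter on low values. A fold of 1.5 gave 759 and 513, and a fold of 4 gave 9 and 1. With libraries scaled to a common sum, lists with a median above 0 in CLA+GW6471 against GW6471 numbered 3 in place of 8. Under the other alternatives (a pseudocount of 0.01, a filter on CLA and Vehicle alone, scaling by median of ratios or, for CLA against Vehicle, to a common sum), the counts stayed within 1.5 times, at 166 to 194 higher and 77 to 86 lower. Of 196 list medians of CLA against Vehicle under the alternatives, 184 moved by less than 0.1, and 12 moved by more. Medians near 0 changed sign, those of keratins (0.16) and bile acid metabolism (0.09) without a filter and of the cell cycle (-0.01) at a common sum. Of the 196 of CLA+GW6471 against GW6471, 189 moved by less than 0.1 and 7 by more. No paired analysis was possible because each group has 1 library, and leaving out a library would remove its group. The depth limits statements on genes near 0.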
